A study of Mus musculus with 16 samples.

Results

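The comparison set colon tumors of *Il23r* ΔTreg mice against colon tumors of WT mice, across all genes of the deposited count table. All libraries whose labels name a tumor were taken, 5 of *Il23r* ΔTreg and 3 of WT mice, which is 8 of the 16 libraries of the series. The other 8 are adjacent normal colon of the same mice. Of 19574 genes in the table, 17122 passed the filter on low counts and were tested.

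WT mice were C57BL/6 Foxp3 YFP-Cre, which express the Cre recombinase and a yellow fluorescent protein from the *Foxp3* locus. *Il23r* ΔTreg mice carried the same Cre together with a floxed *Il23r* gene, so that the gene is deleted in cells that express *Foxp3* and in their descendants, while other cells keep it. Both genotypes thus carried the Cre allele, and the titles label every mouse as male. Mice were 7-8 weeks old at the start and were treated alike with 10 mg per kg azoxymethane (AOM), a colon carcinogen, and 3 cycles of 5 days of 3.5% dextran sodium sulphate (DSS), which injures the epithelium, each followed by 16 days of water. Mice were kept in shared cages and bedding was mixed before the protocol, and each library is of tumor or adjacent normal colon from 1 mouse. The cage labels follow genotype: all 3 WT mice (mouse2988, mouse2989 and mouse2990) are of cage1702300, *Il23r* ΔTreg tumors of mouse2902, mouse2903 and mouse2904 of cage1698567, that of mouse2901 of cage1695867 and that of mouse3883 of cage1706108. The labels disagree for mouse2901, whose adjacent normal colon carries cage1698567. No cage label is shared by the genotypes, and their effects cannot be told apart from those of the cage.

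Interleukin (IL)-23 signals through a receptor of the IL-23R and IL-12Rβ1 chains, and is best known for sustaining IL-17-producing lymphocytes in the gut. Regulatory T (Treg) cells, defined by the transcription factor FOXP3, restrain other lymphocytes and myeloid cells in the colon. Tumor cells are seen by CD8+ T cells through peptides on MHC class I molecules, and myeloid and B cells show peptides to CD4+ T cells on MHC class II; interferon-γ raises both.

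Total counts ran from 34418067 to 56740014 in WT tumors and from 39416334 to 60836474 in *Il23r* ΔTreg tumors. WT tumor mouse2988 stood apart: the 18S ribosomal RNA gene *Rn18s* took 29.7% of its counts (6.62% and 17.8% in the other WT tumors, 0.343% to 9.45% in *Il23r* ΔTreg tumors), its scaling factor was 0.670 against 0.989 to 1.18 in the other 7, and its ribosomal protein transcripts summed to 73970 CPM (counts scaled to the library total) against 25551 to 33171. Results are therefore given with and without it. In a principal component analysis of the 1000 most variable genes, the first component held 35.5% of the variance and placed the WT tumors between 23.6 and 41.6 and the *Il23r* ΔTreg tumors between -47.0 and -0.56, with tumors mouse2901 and mouse3883 farthest from WT. Tissue labels fitted their markers: transcripts of the smooth muscle list summed to 353 to 2054 CPM in the 8 tumors and 8181 to 13030 CPM in adjacent normal colon, whereas Wnt target genes, which are switched on in colon tumors, summed to 3294 to 5641 CPM in tumors and 897 to 1235 CPM in adjacent normal. Epithelial transcripts summed to 12050 to 23820 CPM in the 8 tumors.

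The deleted gene could not check the genotype. *Il23r* gave 0, 10 and 5 counts in WT tumors mouse2988, mouse2989 and mouse2990, and 9, 4, 5, 1 and 1 counts in *Il23r* ΔTreg tumors mouse2901, mouse2902, mouse2903, mouse2904 and mouse3883, below the filter and overlapping between genotypes. Values below keep this order of mice. *Foxp3*, which also drives the Cre, stood at 1.98, 3.07 and 2.38 CPM in WT tumors and 0.702, 0.667, 1.22, 1.05 and 0.762 CPM in *Il23r* ΔTreg tumors. The lowest WT tumor was above the highest *Il23r* ΔTreg tumor, with a log2 fold change of -1.497 ± 0.54 (SE) and an adjusted p of 0.152, which did not pass the adjusted limit.

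More genes were called lower than higher in *Il23r* ΔTreg tumors. The lists of T cell, B cell and MHC genes held part of those called lower. Of 55 gene lists, 25 held a gene called lower, 6 held a gene called higher and 25 held neither. In whole tissue, fewer cells of a type and less RNA per cell cannot be told apart. Calls rest on a 4-group edgeR quasi-likelihood fit of all 16 libraries and need both an adjusted p below 0.05 and more than a 2-fold change (1 on the log2 scale). By this rule 296 genes differed, 1.73% of those tested: 271 fell (1.58%) and 25 rose (0.146%). Of the 271 genes 107 were in at least 1 of the 55 lists and 164 in none. Of the 25 genes 6 were in a list and 19 in none. The median log2 fold change was -1.89 among the genes called lower, with a range of -5.30 to -1.02, and 1.70 among those called higher, with a range of 1.01 to 11.08, while the median over all 17122 genes was 0.01. The 2 groups of tumors did not overlap in CPM for 265 of the 271 and for 23 of the 25. Over all genes tested, every *Il23r* ΔTreg tumor lay below every WT tumor for 7.09% and above for 9.34%. Adjusted p-values of the genes called lower ran from 0.00677 to 0.0499, close to the limit. The last genes inside were *Myo1g* and *Calhm6*, both at 0.0499, and the first outside was *Fasl*, at 0.0501.

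**Figure D1:**
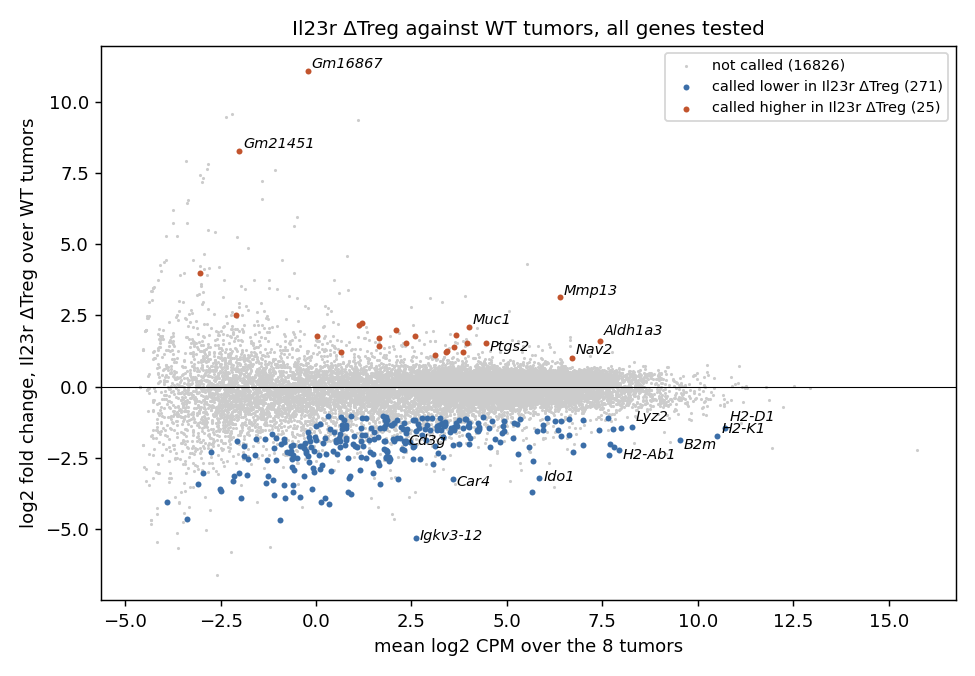
Log2 fold change of *Il23r* ΔTreg over WT tumors (vertical axis) against the mean log2 CPM of the 8 tumors (horizontal axis); each point is 1 of 17122 genes, blue for the 271 called lower and red for the 25 called higher. Called genes lie mostly below 0, and the class I genes *H2-K1*, *H2-D1* and *B2m* are among the most abundant of them.

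How many genes were called depended on the libraries. Without WT tumor mouse2988 the same fit called 10 genes lower and 4 higher, of which 9 and 2 were among the calls above. All 271 and all 25 kept their sign, 261 and 24 stayed beyond a log2 fold change of 1, and the medians were -1.74 and 1.55. As the groups of tumors did not overlap for 265 and 23 of them, leaving out tumors gave their sign little room to change. The genes that were also called were *Gm16867*, *H2-K2*, *Btnl1*, *Flt3l*, *Gimap7*, *Ctss*, *Scart2*, *Pacsin1*, *Otulinl*, *Hoxb5* and *Strc*. Every other call named below was lost without that library. WT tumor mouse2988 was the highest WT tumor for 149 of the 271 genes, WT tumor mouse2989 for 108 and WT tumor mouse2990 for 14. In a fit of the tumor libraries alone, 410 genes fell and 23 rose, and without WT tumor mouse2988 that fit called 250 lower and 14 higher, of which 126 and 5 were among the calls above. Leaving out any other tumor gave 57 (WT tumor mouse2989), 190 (WT tumor mouse2990), 81 (*Il23r* ΔTreg tumor mouse2901), 92 (mouse2902), 119 (mouse2903), 224 (mouse2904) and 112 (mouse3883) genes lower, and 5, 18, 14, 12, 16, 20 and 8 genes higher. Scaled by total counts alone, which raised the median log2 fold change of all genes to 0.30, the split was 27 lower and 19 higher, and all 271 and 25 genes kept their sign. With only the 3 *Il23r* ΔTreg tumors of cage1698567 against WT, 5 genes were called lower and 1 higher, again with all 271 and 25 on the same side of 0 and with medians of -1.83 and 1.46. Were mouse2901 counted to that cage, as its adjacent normal label has it, the set would be the one without mouse3883, with 112 and 8 calls.

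Genes of MHC class I presentation were among the most abundant to fall. Of 19 listed genes tested, 10 were called lower and none higher, the list's median log2 fold change was -1.46 (-1.27 without WT tumor mouse2988), and *Il23r* ΔTreg tumors lay entirely below WT for 15. *B2m*, the light chain that every class I molecule needs, stood at 2119, 1332 and 1721 CPM in WT tumors and 435, 418, 301, 469 and 732 CPM in *Il23r* ΔTreg tumors. Its highest *Il23r* ΔTreg tumor, mouse3883, was still below the lowest WT tumor, with a log2 fold change of -1.87 ± 0.35 (SE) and an adjusted p of 0.0219. *H2-K1* and *H2-D1*, the classical class I heavy chains of this strain, behaved alike. *H2-K1* stood at 4482, 2400.2 and 2739 CPM in WT tumors and 934, 860.5, 685, 912 and 1407 CPM in *Il23r* ΔTreg tumors and *H2-D1* at 4691, 2443 and 2643 CPM in WT tumors and 1107, 1189.6, 932, 1179 and 1529 CPM in *Il23r* ΔTreg tumors, with no overlap in either gene and WT tumor mouse2988 highest in both. The test gave a log2 fold change of -1.74 ± 0.31 (SE) and an adjusted p of 0.0203 for *H2-K1* and a log2 fold change of -1.46 ± 0.31 (SE) and an adjusted p of 0.0320 for *H2-D1*. The interferon-inducible immunoproteasome subunit gene *Psmb9* stood at 225, 81.2 and 85.8 CPM in WT tumors and 30.5, 23.8, 16.95, 29.7 and 48.8 CPM in *Il23r* ΔTreg tumors, again without overlap (a log2 fold change of -2.12 ± 0.45 (SE) and an adjusted p of 0.0314). Nonclassical class I genes fell too: the log2 fold change was -1.44 ± 0.26 (SE) for *H2-T23*, -1.29 ± 0.21 for *H2-M3* and -2.40 ± 0.56 for *H2-Q7*. Class I genes are near-identical copies of each other, and transcript quantification can share reads among them. Single *H2* genes are therefore uncertain, and their shared direction is not a set of independent observations. In the class I list 17 of 19 genes were below 0. Of all 31 *H2* genes tested, which include class II genes, 30 were below 0.

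The promoters of class I and class II genes are shown because these abundant genes moved together and are known to be controlled near the start of transcription. Sequences run from 250 bases before to 50 after the start, from RefSeq on GRCm38.p6, 5′ to 3′ on the gene's strand. Capitals mark matches on either strand to κB (GGG, any 5 bases, CC), Y box (ATTGG), interferon response (GAAA, any 2 bases, GAAA) and AP-1 (TGANTCA) letters; the Y box and interferon motifs were added after the values had been seen.
B2m, chr2:122147437-122147736, plus strand: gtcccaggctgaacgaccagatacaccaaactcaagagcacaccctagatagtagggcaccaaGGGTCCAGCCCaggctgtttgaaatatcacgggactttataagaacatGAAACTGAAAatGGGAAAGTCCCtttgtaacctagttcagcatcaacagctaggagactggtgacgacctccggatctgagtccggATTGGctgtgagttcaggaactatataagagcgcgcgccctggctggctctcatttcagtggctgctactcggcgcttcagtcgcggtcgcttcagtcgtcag
H2-K1, chr17:34000298-34000597, minus strand: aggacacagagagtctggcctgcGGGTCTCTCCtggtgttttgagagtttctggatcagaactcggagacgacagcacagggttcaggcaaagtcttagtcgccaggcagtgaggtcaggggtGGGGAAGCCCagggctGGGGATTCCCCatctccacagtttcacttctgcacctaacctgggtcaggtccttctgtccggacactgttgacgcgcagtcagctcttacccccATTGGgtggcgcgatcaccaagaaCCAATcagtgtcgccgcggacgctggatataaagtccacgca
Psmb9, chr17:34187281-34187580, minus strand: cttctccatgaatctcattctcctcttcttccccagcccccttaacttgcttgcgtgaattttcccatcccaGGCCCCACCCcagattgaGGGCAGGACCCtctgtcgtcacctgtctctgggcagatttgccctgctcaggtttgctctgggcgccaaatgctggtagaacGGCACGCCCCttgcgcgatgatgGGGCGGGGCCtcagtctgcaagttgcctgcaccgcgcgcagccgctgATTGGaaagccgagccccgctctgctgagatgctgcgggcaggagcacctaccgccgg
With the start base counted as 0, a Y box began at -53 in *B2m*, at -16 and 8 in *H2-K1* and at -8 in *Psmb9*, and the *B2m* promoter also held the interferon response letters, from -139 to -130, just before a κB match. Matches are common: 37.4% of all 32851 promoters in the table held a Y box and 50.8% a κB match, while 3.44% held the interferon response letters. Among promoters of the genes called lower (197 of 271 had one in the table) these shares were 32.9%, 54.4% and 9.70%, and among promoters of all genes tested 37.4%, 64.4% and 3.15%, so that the κB share of the genes called lower was above that of all promoters and below that of the genes tested. STAT letters (TTCNNNGAA) were in 11% of promoters of the genes called lower, 6.95% of those of genes tested and 8.30% of all. T-box letters (GGTGTGA) were in 4.64%, 3.55% and 3.98%, and AP-1 letters in 9.28%, 5.96% and 7.81%, in the same order. A match is a description of letters and was not tested as a site.

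MHC class II genes fell too. Of 14 genes tested, 10 were called lower and none higher, with a median of -2.07 (-1.67 without WT tumor mouse2988) and no overlap for 12. *H2-Ab1* and *H2-Aa* encode the 2 chains of I-A. *H2-Ab1* stood at 1035, 510.3 and 450.2 CPM in WT tumors and 111, 119.9, 157, 167 and 156 CPM in *Il23r* ΔTreg tumors, every *Il23r* ΔTreg tumor below every WT tumor (a log2 fold change of -2.23 ± 0.52 (SE) and an adjusted p of 0.0405). *H2-Eb1*, the β chain of the other class II family, stood at 712, 447 and 386 CPM in WT tumors and 89.1, 116, 146, 151 and 132 CPM in *Il23r* ΔTreg tumors, with the same separation (a log2 fold change of -2.02 ± 0.45 (SE) and an adjusted p of 0.0375). *H2-Aa* changed by -2.13 ± 0.48, and *H2-Ob*, which with its partner tempers peptide loading, mostly in B cells, by -2.94 ± 0.68. With the mouse as a replicate block (limma voom, all 16 libraries), *H2-Ob* did not pass (adjusted p of 0.0885).
H2-Aa, chr17:34287774-34288073, minus strand: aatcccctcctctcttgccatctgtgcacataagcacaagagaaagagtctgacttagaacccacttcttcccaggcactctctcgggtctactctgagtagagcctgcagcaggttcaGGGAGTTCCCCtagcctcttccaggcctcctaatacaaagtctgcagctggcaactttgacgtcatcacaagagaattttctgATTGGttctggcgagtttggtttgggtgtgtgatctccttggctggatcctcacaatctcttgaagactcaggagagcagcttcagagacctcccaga
H2-Eb1, chr17:34305617-34305916, plus strand: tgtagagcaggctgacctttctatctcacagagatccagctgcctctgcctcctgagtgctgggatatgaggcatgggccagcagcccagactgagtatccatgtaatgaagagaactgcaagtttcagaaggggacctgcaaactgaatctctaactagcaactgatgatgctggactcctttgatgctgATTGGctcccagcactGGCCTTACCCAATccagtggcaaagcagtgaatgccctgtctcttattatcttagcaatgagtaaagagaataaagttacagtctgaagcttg
Both promoters have a Y box (capitals at -48 in *H2-Aa* and at -59 and -35 in *H2-Eb1*), an element of class II promoters. *Ciita*, the master activator of class II genes, stood at 50.4, 53.7 and 39.2 CPM in WT tumors and 13.9, 9.01, 14.5, 10.5 and 28.9 CPM in *Il23r* ΔTreg tumors, also without overlap, but a log2 fold change of -1.64 ± 0.47 (SE) and an adjusted p of 0.0781 did not pass, although it did with the mouse as a replicate block (adjusted p of 0.046, limma voom). *Cd74*, the invariant chain that escorts class II molecules, was likewise separated and not called (a log2 fold change of -1.93 ± 0.53 (SE) and an adjusted p of 0.0705). *Ctss*, the protease that trims the invariant chain, stood at 307, 360.1 and 314 CPM in WT tumors and 103, 163, 158, 205 and 136 CPM in *Il23r* ΔTreg tumors and remained called without WT tumor mouse2988 (a log2 fold change of -1.10 ± 0.18 (SE) and an adjusted p of 0.0203 with all tumors, 0.0498 without it). *Ifi30*, a lysosomal thiol reductase that prepares antigens, changed by -1.19 ± 0.23.

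*Ido1*, which degrades tryptophan and is induced by interferon-γ, fell steeply. Its level was 320.0, 200.3 and 219.9 CPM in WT tumors and 24.0, 15.7, 21.3, 21.6 and 50.3 CPM in *Il23r* ΔTreg tumors. The lowest WT tumor was several times the highest *Il23r* ΔTreg tumor, which was mouse3883, with a log2 fold change of -3.21 ± 0.50 (SE) and an adjusted p of 0.0203. The interferon-stimulated list pointed the same way with weak single genes: all 30 tested were below 0, the median was -1.15 (-0.96 without WT tumor mouse2988), 1 was called (*Bst2*, a log2 fold change of -1.79 ± 0.38 (SE) and an adjusted p of 0.0297), and 7 did not overlap.

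T cell transcripts fell as a group. Of 20 T cell receptor complex and signaling genes, 17 were called lower, the median was -2.22 (-2.02 without WT tumor mouse2988), and 19 did not overlap. The summed list stood at 187 to 274 CPM in WT and 62.2 to 88.9 CPM in *Il23r* ΔTreg tumors. *Cd3g*, a chain of the CD3 complex, stood at 18.1, 11.6 and 10.1 CPM in WT tumors and 2.41, 2.90, 2.52, 4.005 and 2.22 CPM in *Il23r* ΔTreg tumors, with a gap between the genotypes (a log2 fold change of -2.24 ± 0.40 (SE) and an adjusted p of 0.0203). *Lat*, the adaptor that links the receptor to its signal, stood at 16.1, 12.4 and 9.17 CPM in WT tumors and 2.88, 2.93, 2.85, 2.91 and 2.04 CPM in *Il23r* ΔTreg tumors; tumor mouse3883 was lowest and no tumor overlapped (a log2 fold change of -2.20 ± 0.38 (SE) and an adjusted p of 0.0203). For the CD8 coreceptor, *Cd8a* changed by -2.24 ± 0.43 and *Cd8b1* by -2.99 ± 0.56, and the signaling adaptor *Skap1* by -2.38 ± 0.40.

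**Figure D2:**
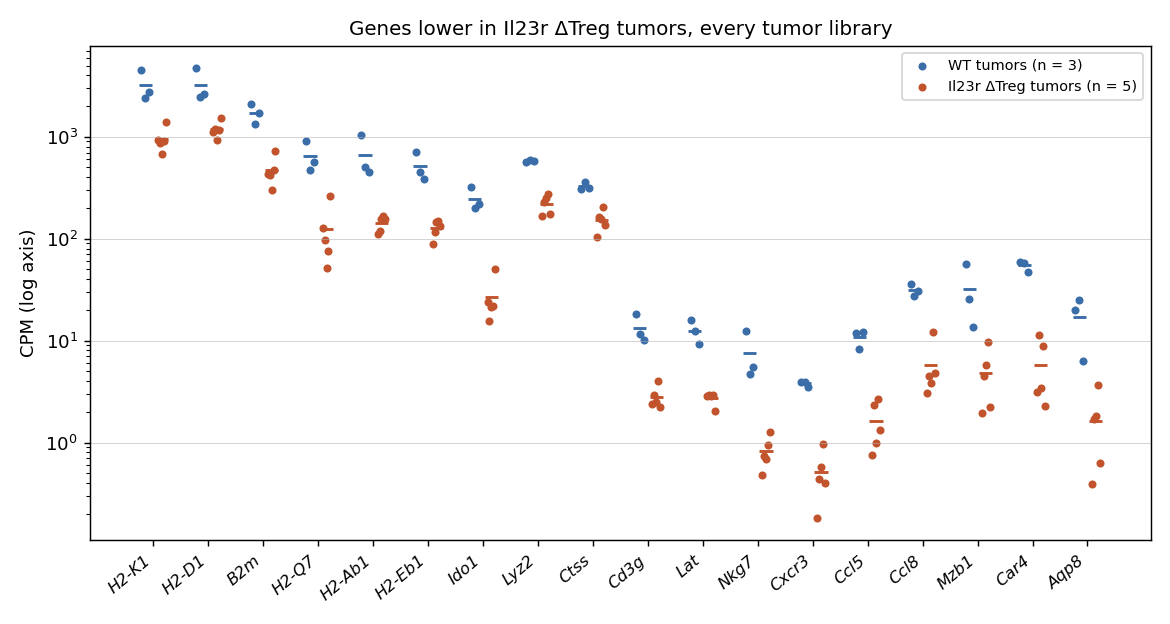
CPM (vertical, log axis) of 18 genes called lower (horizontal), with 1 point per tumor, WT blue (n = 3) and *Il23r* ΔTreg red (n = 5), and bars at the group means. In each of these genes every red point lies below every blue point, as for *Cd3g*, where the 5 *Il23r* ΔTreg tumors sit at 2.22 to 4.005 CPM and the WT tumors at 10.1 to 18.1 CPM.

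Some genes that mark Treg cells fell. Of 23 tested, 6 were called lower and none higher, with a median of -1.30 (-1.28 without WT tumor mouse2988) and no overlap for 14. *Tnfrsf4*, the costimulatory receptor OX40, stood at 11.6, 5.79 and 4.64 CPM in WT tumors and 1.502, 1.62, 1.58, 1.76 and 1.03 CPM in *Il23r* ΔTreg tumors, without overlap (a log2 fold change of -2.28 ± 0.39 (SE) and an adjusted p of 0.0203). The chemokine receptor gene *Ccr8*, a mark of tumor Treg cells, changed by -2.26 ± 0.53, *Ccr4* by -1.80 ± 0.40, the integrin gene *Itgae* by -1.30 ± 0.27 and the suppressive cytokine gene *Il10* by -2.59 ± 0.60, all called. *Foxp3* itself, described above, had a fold in the same range and was not called. The 17 not called also included *Ikzf2*, a factor of many Treg cells, at 0.04, and *Il1rl1*, the IL-33 receptor, at 1.64 with an adjusted p of 0.128 (0.0327 with the mouse as a replicate block, limma voom). *Il1rl1* stood at 62.1, 45.2 and 43.9 CPM in WT tumors and 208, 129.7, 141, 119 and 186 CPM in *Il23r* ΔTreg tumors, every *Il23r* ΔTreg tumor above every WT tumor. The summed list, which includes *Il1rl1*, overlapped, at 381 to 655 CPM in WT and 424 to 449 CPM in *Il23r* ΔTreg tumors. Because *Il1rl1* went the other way, this overlap does not describe the other members, whose sum is not given. Other lymphocytes transcribe these genes too, and the table does not separate their sources.

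Part of the cytotoxic lymphocyte and T helper 1 (Th1) genes fell. Of 20 cytotoxic and natural killer (NK) genes, 10 were called lower and none higher, the median was -2.11 (-1.98 without WT tumor mouse2988) and 15 did not overlap. *Nkg7*, a granule protein needed for killing, stood at 12.5, 4.70 and 5.46 CPM in WT tumors and 0.477, 0.743, 0.694, 0.953 and 1.26 CPM in *Il23r* ΔTreg tumors, each *Il23r* ΔTreg tumor far below WT (a log2 fold change of -3.20 ± 0.53 (SE) and an adjusted p of 0.0203). *Klrb1c*, the NK1.1 receptor, changed by -3.13 ± 0.51 and *Cd160*, a receptor of NK and intraepithelial T cells, by -2.54 ± 0.41. Among 19 Th1 genes 4 were called lower and 15 were not called, *Ifng* among them, at -1.43 with an adjusted p of 0.445 and overlapping groups. *Cxcr3*, the receptor that draws Th1 and CD8+ cells to interferon-induced chemokines, stood at 3.97, 3.93 and 3.53 CPM in WT tumors and 0.183, 0.438, 0.576, 0.977 and 0.403 CPM in *Il23r* ΔTreg tumors and did not overlap (a log2 fold change of -2.89 ± 0.50 (SE) and an adjusted p of 0.0203). *Tbx21*, which encodes the Th1 factor T-bet, changed by -2.08 ± 0.48, with WT tumors at 1.37 to 1.59 CPM and *Il23r* ΔTreg tumors at 0.203 to 0.548 CPM.

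In the IL-12 and IL-23 family 2 of 13 genes were called lower: *Il12rb1*, the chain that IL-12 and IL-23 receptors share, and *Il27ra*. *Il12rb1* stood at 3.19, 3.51 and 2.97 CPM in WT tumors and 0.828, 0.972, 0.847, 1.12 and 0.874 CPM in *Il23r* ΔTreg tumors, with no overlap (a log2 fold change of -1.80 ± 0.41 (SE) and an adjusted p of 0.0399), and *Il27ra* changed by -1.87 ± 0.38. The Th17 list had 3 of 22 called lower (*Il12rb1*, *Batf* and *Il21r*) and none higher, and its median was -0.31 (-0.29 without WT tumor mouse2988), nearer to 0 than that of the T cell list. Receptors of the common γ chain cytokines gave 3 of 15, including *Il2rb* (-2.10 ± 0.41), *Il21r* (-1.89 ± 0.47) and *Il9r* (-2.26 ± 0.55), the last not called with the mouse as a replicate block (adjusted p of 0.104, limma voom). Costimulation genes gave 4 of 19, among them *Cd28* (-1.80 ± 0.38) and *Cd27* (-2.25 ± 0.45).

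B cell transcripts had the lowest median of the 55 lists, -2.73 (-2.65 without WT tumor mouse2988), with 10 of 23 called lower and 17 not overlapping. The summed list overlapped, at 1023 to 2311 CPM in WT and 603 to 1178 CPM in *Il23r* ΔTreg tumors. *Cxcr5*, which guides B cells into follicles and is in the chemokine receptor list instead, stood at 3.32, 5.90 and 1.03 CPM in WT tumors and 0.0983, 0.438, 0.305, 0.358 and 0.134 CPM in *Il23r* ΔTreg tumors. WT tumor mouse2989 was the highest and WT tumor mouse2990 the lowest of its group, and all *Il23r* ΔTreg tumors were under 1 CPM (a log2 fold change of -3.69 ± 0.82 (SE) and an adjusted p of 0.0375). *Spib*, a B lineage factor also made by M cells, changed by -3.15 ± 0.59 and *Cd79b* by -3.01 ± 0.67. *Mzb1*, an endoplasmic reticulum protein of antibody-secreting cells, stood instead highest in WT tumor mouse2988, at 56.6, 25.6 and 13.7 CPM in WT tumors and 1.97, 4.48, 5.76, 9.70 and 2.24 CPM in *Il23r* ΔTreg tumors (a log2 fold change of -2.73 ± 0.64 (SE) and an adjusted p of 0.0417). With the mouse as a replicate block (limma voom), these 4 genes did not pass, at an adjusted p of 0.0991 for *Cxcr5*, 0.0573 for *Spib*, 0.0575 for *Cd79b* and 0.0556 for *Mzb1*. Of 87 immunoglobulin κ variable genes tested 75 were below 0 and 4 were called. Of these 4, the one with the largest fold, *Igkv3-12* (-5.30 ± 0.90), moved to -2.78 without WT tumor mouse2988, in which it stood at 244 CPM against 21.1 and 10.8 CPM in the other WT tumors. These variable genes are near-identical copies, so their single values are uncertain and their shared direction is not a set of independent observations.

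Macrophage genes fell in part. Of 26, 7 were called lower and none higher, the median was -0.72 (-0.92 without WT tumor mouse2988) and 11 did not overlap. *Lyz2*, the lysozyme of macrophages and neutrophils, stood at 566, 592 and 581 CPM in WT tumors and 166, 229, 252, 275 and 173 CPM in *Il23r* ΔTreg tumors, with the WT tumors close together and well above the rest (a log2 fold change of -1.40 ± 0.25 (SE) and an adjusted p of 0.0205). *Trem2*, a lipid-sensing receptor, changed by -1.56 ± 0.28, *C1qb*, a chain of the first complement component, by -1.73 ± 0.36 and *Cd68*, a lysosomal glycoprotein, by -1.27 ± 0.25. *Ly6c2*, a mark of classical monocytes, stood at 34.4, 11.6 and 17.3 CPM in WT tumors and 2.41, 3.22, 3.40, 5.94 and 3.18 CPM in *Il23r* ΔTreg tumors and was separated as well (a log2 fold change of -2.54 ± 0.46 (SE) and an adjusted p of 0.0207). Its list of 20 monocyte and inflammatory genes did not fall as a group. In it 1 gene was called lower and 1 higher (*Ptgs2*), with a median of -0.32 (-0.10 without WT tumor mouse2988). *Il23r* ΔTreg tumors lay entirely below WT for 3 of these genes and entirely above for 1. The dendritic cell list had 4 of 20 called, including *Batf3* (-1.58 ± 0.30), which type 1 conventional dendritic cells require, and *Siglech* (-2.41 ± 0.50) of plasmacytoid dendritic cells. *Flt3l*, the growth factor of dendritic cells, changed by -1.17 ± 0.17 and was called with and without WT tumor mouse2988. Of complement genes 2 of 18 were called, *Cfp* (-1.55 ± 0.29) and *C1s1* (-1.16 ± 0.28). Neutrophil genes had none of 15 called and a median of 0.42 (0.91 without WT tumor mouse2988), and mast cell genes none of 16 with a median of -1.18.

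Some chemokine genes fell. Of 35 tested, 10 were called lower, none higher and 25 neither, 27 were below 0 and 8 above, 16 did not overlap, with a median of -1.28 (-1.07 without WT tumor mouse2988). *Ccl5*, a chemokine made by T and NK cells, stood at 11.9, 8.29 and 12.1 CPM in WT tumors and 0.758, 2.34, 0.999, 2.69 and 1.32 CPM in *Il23r* ΔTreg tumors, without overlap (a log2 fold change of -2.74 ± 0.55 (SE) and an adjusted p of 0.0260). *Ccl8*, made largely by tissue macrophages, stood at 35.7, 27.5 and 31.0 CPM in WT tumors and 3.07, 4.52, 3.86, 12.3 and 4.77 CPM in *Il23r* ΔTreg tumors; tumor mouse2904 was the highest *Il23r* ΔTreg tumor and still below WT (a log2 fold change of -2.47 ± 0.46 (SE) and an adjusted p of 0.0219). *Xcl1*, by which NK and CD8+ cells call type 1 dendritic cells, changed by -2.63 ± 0.50. The other members called were *Ccl1*, *Ccl9*, *Ccl12*, *Ccl17*, *Ccl21a*, *Cxcl11* and *Cxcl16*, between -2.92 and -1.21.

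Few epithelial genes fell. In the colonocyte list 3 of 24 were called lower, with a median of -0.65 (-0.71 without WT tumor mouse2988). *Car4*, a carbonic anhydrase of surface colonocytes, stood at 59.7, 57.9 and 46.9 CPM in WT tumors and 3.10, 11.3, 3.46, 8.92 and 2.29 CPM in *Il23r* ΔTreg tumors, with no overlap (a log2 fold change of -3.24 ± 0.51 (SE) and an adjusted p of 0.0203). The water channel gene *Aqp8* changed by -3.41 ± 0.63 and the fatty acid binding protein gene *Fabp2* by -1.97 ± 0.44. *Btnl1*, a butyrophilin-like gene of epithelial cells that maintains intraepithelial γδ T cells, stood at 1.25, 3.31 and 1.06 CPM in WT tumors and 0.0421, 0.133, 0.339, 0.310 and 0.179 CPM in *Il23r* ΔTreg tumors and kept its call without WT tumor mouse2988 (a log2 fold change of -3.27 ± 0.45 (SE) and an adjusted p of 0.0140). *Btnl2* changed by -2.97 ± 0.53. *Upp1*, a uridine phosphorylase, stood at 360.3, 108 and 78.3 CPM in WT tumors and 28.5, 19.2, 20.4, 30.8 and 49.5 CPM in *Il23r* ΔTreg tumors; WT tumor mouse2988 was over 3 times the other WT tumors and the fold fell to -1.64 without it (a log2 fold change of -2.62 ± 0.53 (SE) and an adjusted p of 0.0267 with it). Among epithelial genes in general none of 17 was called and the median was -0.32, or -0.04 without WT tumor mouse2988. The 58 ribosomal protein genes behaved in the same way, with none called and a median that went from -0.51 to 0.04.

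**Figure D3:**
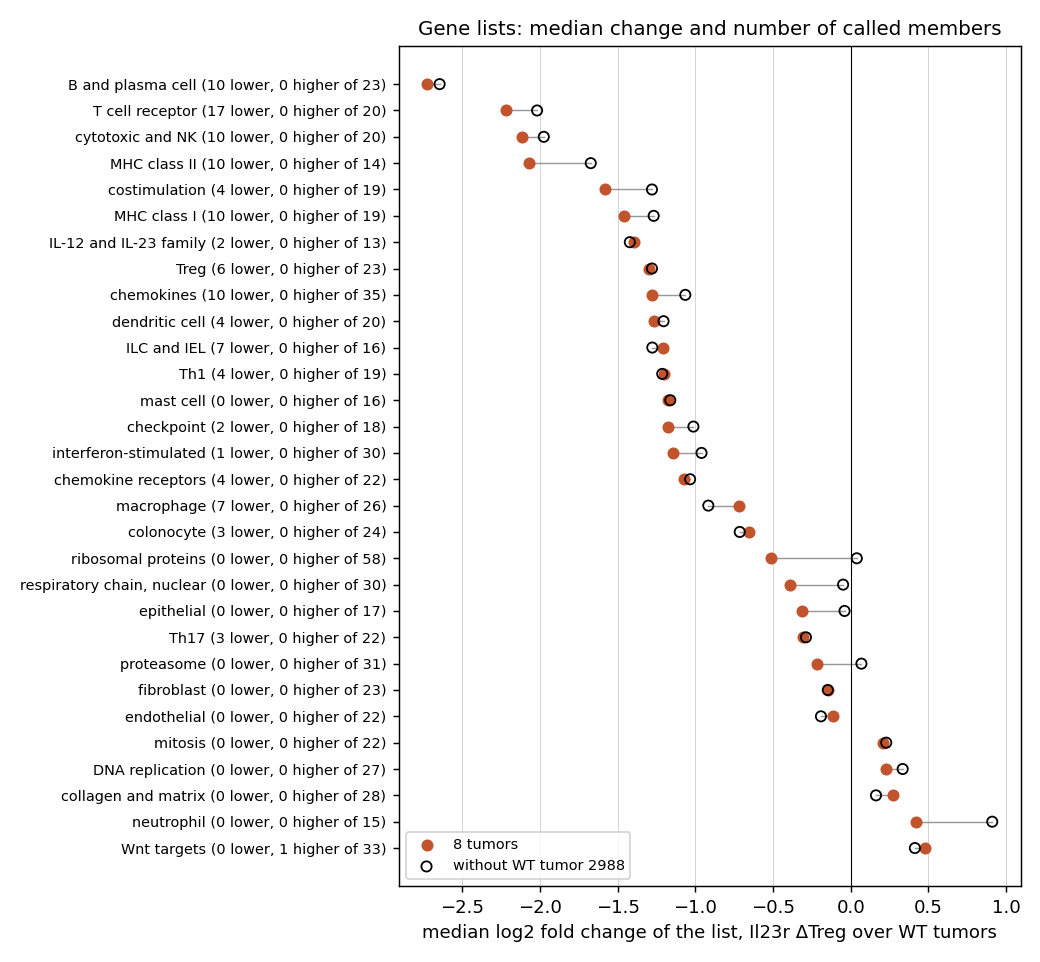
Median log2 fold change of *Il23r* ΔTreg over WT tumors (horizontal axis) for 30 gene lists (vertical axis, with the members called of those tested); filled points use the 8 tumors and open points leave out WT tumor mouse2988. B cell (-2.73), T cell (-2.22), cytotoxic (-2.11) and MHC class II (-2.07) lists stay far below 0 under both, while ribosomal protein genes go from -0.51 to 0.04.

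The 25 genes that rose belonged to no single list. *Mmp13*, a collagenase that remodels tumor stroma, had the largest fold among the well-expressed ones, at 39.9, 20.7 and 24.0 CPM in WT tumors and 557, 65.9, 103, 70.1 and 438 CPM in *Il23r* ΔTreg tumors. Tumors mouse2901 and mouse3883 were 4 or more times the other *Il23r* ΔTreg tumors, which were themselves above all WT tumors (a log2 fold change of 3.13 ± 0.76 (SE) and an adjusted p of 0.0459). With only the tumors of cage1698567 the log2 fold change was 1.46. The *Mmp13* promoter is shown for its AP-1 site letters, at -35 to -29 from the start, and also holds the interferon response letters on the other strand. Among promoters of the genes called higher, 2 of 26 held AP-1 letters (7.69%), against 5.96% for genes tested and 7.81% of all. For the interferon response letters the shares were 7.69%, 3.15% and 3.44%, in the same order.
Mmp13, chr9:7272264-7272563, plus strand: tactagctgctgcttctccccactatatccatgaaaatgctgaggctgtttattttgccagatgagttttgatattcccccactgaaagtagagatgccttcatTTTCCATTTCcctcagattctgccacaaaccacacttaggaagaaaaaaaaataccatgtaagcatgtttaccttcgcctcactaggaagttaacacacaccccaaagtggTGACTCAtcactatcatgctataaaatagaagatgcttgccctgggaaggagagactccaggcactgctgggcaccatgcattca
*Ndnf*, a secreted factor of vessels and neurons, shared the order of tumors, at 0.733, 1.20 and 0.940 CPM in WT tumors and 7.54, 2.17, 2.20, 3.08 and 7.69 CPM in *Il23r* ΔTreg tumors (a log2 fold change of 2.23 ± 0.44 (SE) and an adjusted p of 0.0237), and was not called with the mouse as a replicate block (adjusted p of 0.0621, limma voom). The pair mouse2901 and mouse3883 stood above the other 3 *Il23r* ΔTreg tumors in 8 of the 25 genes called higher and below them in 111 of the 271 called lower, which is 32% and 41%, against 18.2% and 19.3% of all genes tested.

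*Muc1*, a transmembrane mucin often raised in carcinoma, stood at 11.7, 8.05 and 2.14 CPM in WT tumors and 47.7, 24.8, 15.0, 28.7 and 40.7 CPM in *Il23r* ΔTreg tumors, without overlap (a log2 fold change of 2.11 ± 0.52 (SE) and an adjusted p of 0.0469). *Ptgs2*, the inducible cyclooxygenase that makes prostaglandins in colon tumors, stood at 8.02, 14.3 and 12.9 CPM in WT tumors and 46.8, 20.2, 45.0, 27.7 and 30.8 CPM in *Il23r* ΔTreg tumors, every *Il23r* ΔTreg tumor above WT (a log2 fold change of 1.54 ± 0.35 (SE) and an adjusted p of 0.0383). The retinaldehyde dehydrogenase gene *Aldh1a3* stood at 76.8, 93.7 and 87.1 CPM in WT tumors and 235, 302, 228, 267 and 289.8 CPM in *Il23r* ΔTreg tumors; both groups were narrow and far apart (a log2 fold change of 1.62 ± 0.39 (SE) and an adjusted p of 0.0454). A second gene of retinoic acid synthesis, *Aldh1a2*, rose by 1.22 ± 0.29 (adjusted p of 0.0547 with the mouse as a replicate block, limma voom).

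Other genes that rose had little in common. *Mycn*, a MYC family factor, stood at 2.85, 2.05 and 3.50 CPM in WT tumors and 9.88, 8.33, 8.13, 12.4 and 9.39 CPM in *Il23r* ΔTreg tumors, with the lowest *Il23r* ΔTreg tumor over 2 times the highest WT tumor (a log2 fold change of 1.79 ± 0.34 (SE) and an adjusted p of 0.0219). *Hoxb5*, a homeobox gene, stood at 1.77, 0.614 and 0.441 CPM in WT tumors and 6.33, 3.92, 2.56, 3.38 and 4.12 CPM in *Il23r* ΔTreg tumors and was called without WT tumor mouse2988 too (a log2 fold change of 2.15 ± 0.45 (SE) and an adjusted p of 0.0294). *Ret*, the receptor of enteric neuron growth factors, rose by 1.53 ± 0.37 (adjusted p of 0.0751 with the mouse as a replicate block, limma voom), *Apln*, a vessel peptide, by 1.53 ± 0.33, *Moxd1* by 1.99 ± 0.43, *Dnajc6* by 1.81 ± 0.42, *Chodl* by 1.24 ± 0.21 and *Cfap69* by 1.43 ± 0.28. Of 33 Wnt target genes 1 was called, *Nav2*, at 53.0, 71.2 and 78.6 CPM in WT tumors and 139, 153, 149.9, 98.7 and 143 CPM in *Il23r* ΔTreg tumors; tumor mouse2904 was lowest of its group and still above WT (a log2 fold change of 1.01 ± 0.20 (SE) and an adjusted p of 0.0241). The other 32 were not called. Over the whole list, *Nav2* included, 32 of 33 were above 0, the median was 0.48 (0.41 without WT tumor mouse2988), and 7 did not overlap. *Axin2*, a standard readout of the pathway, was at 0.54 ± 0.22 and *Lgr5*, the stem cell receptor, at 0.82 ± 0.42. Of cell cycle genes, none of 22 mitosis genes and none of 27 DNA replication genes was called, with medians of 0.21 and 0.22. Every *Il23r* ΔTreg tumor lay above every WT tumor for 4 of the 27 DNA replication genes, against 9.34% of all genes tested. This small count was not tested against that share. Of 21 cell cycle control genes, *Mycn* was the 1 called.

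**Figure D4:**
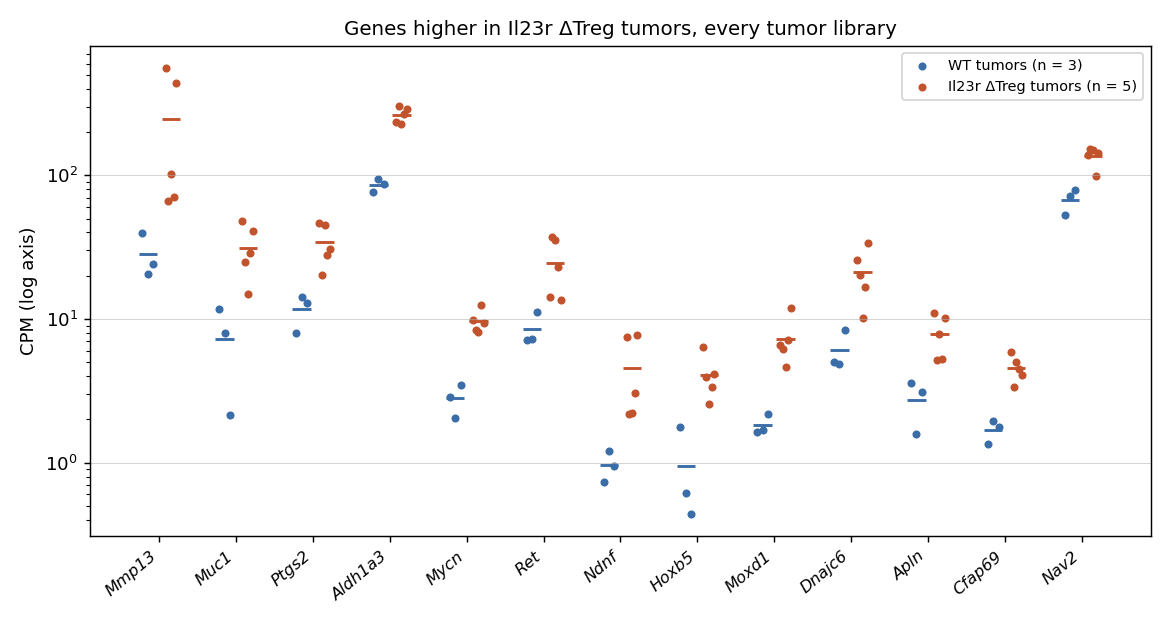
CPM (vertical, log axis) of 13 genes called higher (horizontal), with 1 point per tumor, WT blue (n = 3) and *Il23r* ΔTreg red (n = 5), and bars at the group means. Every red point lies above every blue point in each gene, and *Mmp13* and *Ndnf* show 2 *Il23r* ΔTreg tumors above the other 3.

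A pair of genes told the genotypes apart in both tissues. *Gm16867* gave 0 counts in each of the 3 WT tumors and 327, 409, 281, 144 and 321 counts in the *Il23r* ΔTreg tumors, and in adjacent normal colon 1 count over 3 WT libraries against 155 to 458 counts in each of 5 *Il23r* ΔTreg libraries. *Gm21451* gave 0 counts in all 6 WT libraries and 10 to 78 counts in *Il23r* ΔTreg tumors and 30 to 355 in their adjacent normal colon. With 3 counts over the WT tumors taken as the limit that a count of 0 allows, *Gm16867* was at least 221-fold higher and *Gm21451* at least 31.8-fold higher in *Il23r* ΔTreg tumors. *Gm16867* had an adjusted p of 8.28e-05, the smallest of all genes (edgeR), and was the only gene called between the adjacent normal tissues (0.00584% of those tested). In RefSeq both gene models overlap on chromosome 14, and *Il23r* is on chromosome 6. Overlapping models can share reads, so the pair is not 2 independent observations. With the mouse as a replicate block *Gm21451* was not called (adjusted p of 0.0664, limma voom). The strain history of the floxed line is not given in the sources used here, and its part in these counts was not tested.

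The genes called between tumors were then read in adjacent normal colon of the same mice. There the 271 genes had a median log2 fold change of 0.21 and 71 of them were below 0, and the 25 genes had a median of -0.07 with 12 above 0. These genes were chosen on the tumor libraries, so their tumor means set against normal colon partly follow from that choice. Shares over all genes were not computed. In WT mice the tumor mean was above the adjacent normal mean for 220 of the 271, whereas in *Il23r* ΔTreg mice it was above for 30. *B2m*, for example, averaged 1724 CPM in WT tumors and 485 CPM in WT adjacent normal colon, against 471 and 492 CPM in *Il23r* ΔTreg mice. *Ido1* averaged 247 and 26.1 CPM in WT mice and 26.6 and 18.9 CPM in *Il23r* ΔTreg mice. *Mmp13* averaged 28.2 and 7.81 CPM in WT mice and 247 and 7.01 CPM in *Il23r* ΔTreg mice. *Car4* was high in adjacent normal colon of both, at 863 and 575 CPM.

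The test of the difference between tissues itself, an interaction of tissue and genotype, passed for no gene (0 of 17122 by edgeR at an adjusted p under 0.05, and 0 by limma), with 2370 genes at an unadjusted p under 0.05 and 398 called by DESeq2. Of the 271 genes 269 had an interaction of the same sign as the tumor difference and 260 an unadjusted p under 0.05, with a smallest adjusted p of 0.159, and DESeq2 called 188 of them. These genes were chosen on the tumor libraries that also enter the interaction.

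**Figure D5:**
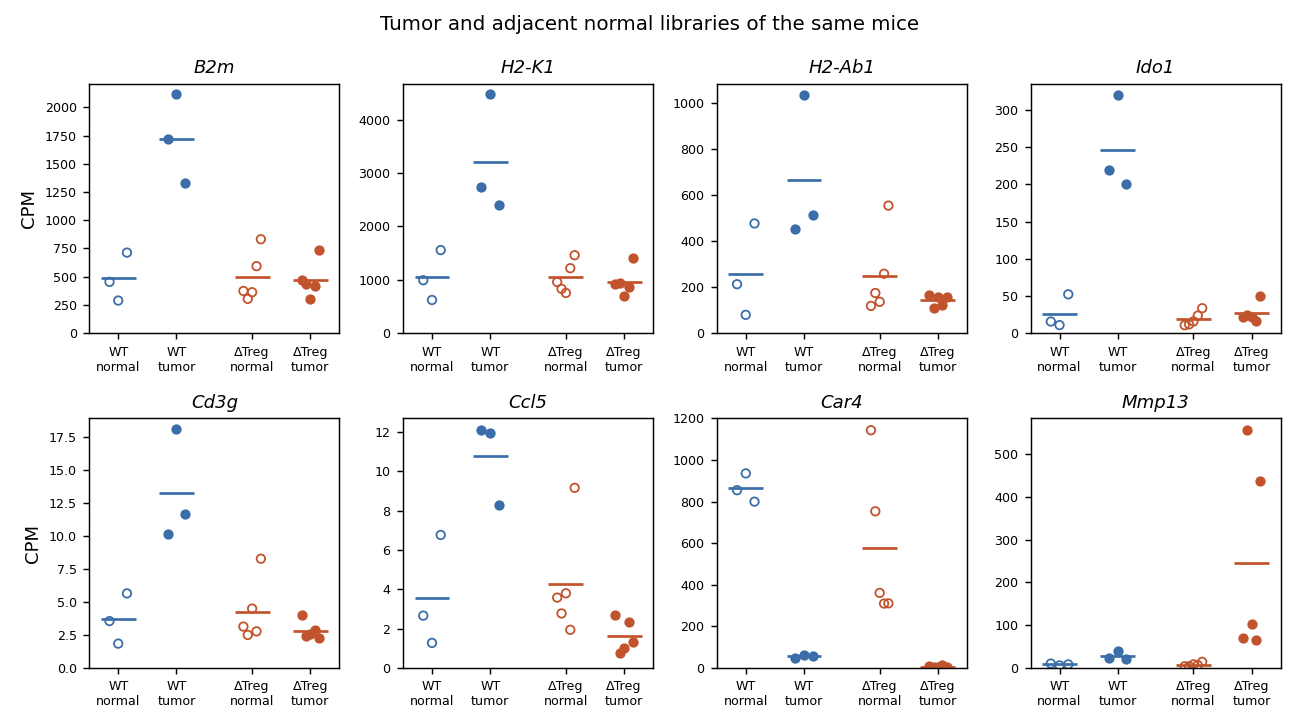
CPM (vertical axes, from 0) of 8 genes in each library of WT (blue) and *Il23r* ΔTreg (red) mice, open points adjacent normal colon and filled points tumor, with bars at the means. For *B2m*, *H2-K1*, *H2-Ab1*, *Ido1*, *Cd3g* and *Ccl5* the WT tumors stand above the other means, for *Car4* both tumor groups are far below normal colon, and for *Mmp13* the *Il23r* ΔTreg tumors are highest.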

How the data were processed

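RNA-seq libraries were made from 8 tumors and 8 adjacent normal colons of 3 WT and 5 *Il23r* ΔTreg mice. The authors trimmed reads with fastp (0.20.0), quantified transcripts with Salmon (1.4.0) and deposited estimated counts per gene as whole numbers; the annotation release behind the gene identifiers was not settled, so gene coordinates come only from RefSeq promoters (GRCm38.p6). These estimated counts were the only values used. The authors' own fold changes, p-values and normalized tables were not used, and 64 further columns whose names match no label were left out.

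Groups came from the sample titles, and the mouse number in them pairs tumor with adjacent normal colon. Same-mouse deviations from the group means correlated between -0.266 and 0.327. Genes were kept by filterByExpr with a minimum count of 10, scaled by TMM and tested with edgeR (4.0.16, R 4.3.3) by the quasi-likelihood test in 1 fit of 4 groups with Benjamini-Hochberg adjustment. Each SE printed beside a log2 fold change is the absolute log2 fold change divided by the square root of the F statistic. It was thus derived from the test and not estimated apart from it. CPM are TMM-scaled, are not divided by gene length and compare 1 gene across libraries only. Counts of reads without molecular identifiers set limits of counting error only, and 3 counts were taken as the limit that a count of 0 allows. The 4 groups share 1 estimate of spread and the main fit has no mouse term. Its p-values thus rest on the spread between libraries within groups, pooled over tumors and adjacent normal colon. The 3 WT mice are of 1 cage, so WT spread is that within a cage.

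Genes named were *Il23r* and *Foxp3*, up to 12 called genes per direction with the largest fold (mean log2 CPM at least 1, no overlap), the 6 called genes per direction with the highest level, and up to 3 called members of each of 55 lists, or 2 by level where none was called, not all of which are printed. Genes outside this rule, such as *H2-Aa*, *Psmb9*, *Cd8a*, *C1qb*, *Il10*, *Ciita*, *Axin2*, *Chodl*, *Ifng*, *Ikzf2*, *Il1rl1*, *Gm16867* and *Gm21451*, were chosen after their values were seen. The comparison, lists and genes were chosen with earlier results of these data known. Alternatives were DESeq2 (1.42.0), limma (3.58.1) with and without cage or mouse as a block, other scalings, filters and thresholds, tumors alone, and leaving out each tumor. The fits were tested on simulated data with known changes.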

Additional observations from a re-analysis of the deposited data

Results flagged for a closer look

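Among the 5 *Il23r* ΔTreg tumors, 5 of the 107 genes checked had 1 tumor whose gap to the nearest other tumor, on the log2 CPM scale, exceeded 0.71 of the group's range; chance gives this in about 1 of 20 groups. Tumor mouse2901 was low for *Batf3*, at a log2 CPM of 0.014 (0.969 CPM, the nearest tumor at 2.08 CPM), and for *Igkv3-12*, at -0.872 (0.505 CPM against 2.24 CPM). Tumor mouse3883 was low for *Lat*, at 1.06 (2.04 CPM against 2.85 CPM), and for *Scart2*, at -1.80 (0.247 CPM against 0.322 CPM). Tumor mouse2904 was low for *Nav2*, at 6.63 (98.7 CPM against 139 CPM), on the side of the WT tumors.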

How the results depend on the processing

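Every one of the called genes kept its sign under all alternatives in which it was tested. For genes whose groups of tumors did not overlap, leaving out tumors could hardly have changed it. The count of genes lower (271) and higher (25) was 635 and 104 by DESeq2, 266 and 38 by limma, 513 and 93 by limma with the cage label as a block (an estimated correlation of -0.0873, each cage holding 1 genotype), 410 and 23 with tumors alone, 27 and 19 with scaling by total counts, 535 and 80 at an adjusted p under 0.1, 308 and 52 without the fold limit, and 5 and 1 with only the *Il23r* ΔTreg tumors of cage1698567. Leaving out 1 tumor at a time gave 10 to 224 genes lower and 4 to 20 higher. Tumors alone without WT tumor mouse2988, an alternative added after the data were seen, gave 250 and 14. Upper quartile (346 and 20) and RLE scaling (298 and 23), no filter (226 and 23), a stricter filter (278 and 26) and leaving out *Rn18s* (270 and 24) stayed within 1.5 times. The interaction count was 0 by edgeR and limma and 398 by DESeq2. With the mouse as a replicate block (limma voom, a correlation of 0.127, the mouse pairing tumor and normal colon) 324 genes were lower and 29 higher, 230 and 16 of them among the main calls, and the interaction count stayed 0. Among the genes named, the block changed no call other than those given beside them. *Ikzf2*, at 0.04 and not called, was below 0 with tumors alone (-0.0049, or -0.29 without WT tumor mouse2988 too), with upper quartile scaling (-0.025), and without *Il23r* ΔTreg tumor mouse3883 (-0.021), WT tumor mouse2988 (-0.24) or WT tumor mouse2990 (-0.023), and leaving out 1 tumor at a time gave -0.24 to 0.47.

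The 3 WT mice from 1 cage limit the comparison: genotype and cage cannot be told apart, and at 34418067 or more counts a library depth limits only genes of a few counts, such as *Il23r*.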

Other observations

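Genes of other families also fell. Of 8 *Gimap* genes tested, small GTPases of lymphocytes, 6 were called lower and all 8 were below 0 (median log2 fold change -1.46). Of 20 α-defensin (*Defa*) genes, products of Paneth cells, 4 were called lower and all 20 were below 0 (median -1.91). *Defa43* stood at 18.8, 8.82 and 41.5 CPM in WT tumors mouse2988, mouse2989 and mouse2990, and between 0.269 and 4.39 CPM in *Il23r* ΔTreg tumors, and in adjacent normal colon it was near 0 in both genotypes (means of 0.026 and 0 CPM). The defensin genes are near-identical copies, so their single values are uncertain and their shared direction is not a set of independent observations. A gene can also pass the count filter through the WT tumors alone, and which defensin genes did so was not checked. *Anxa10*, an annexin in the list of stem and fetal epithelium genes, was the only one of its 20 genes called (-2.06 ± 0.46). Its level was low, with means of 0.571 CPM in WT and 0.134 CPM in *Il23r* ΔTreg tumors. The list did not fall with it: 14 of the 20 were above 0, 6 were below, and the median was 0.26 (0.36 without WT tumor mouse2988).

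By chromosome, 38 of 841 genes tested on chromosome 17, which holds the MHC, were called lower (4.52%), against 1.58% of all genes tested. On chromosome 6, which holds *Il23r* and the *Gimap* and κ variable genes, 31 of 977 were called lower (3.17%). The 6 *Gimap* and 4 κ variable genes called lower do not make up these 31. Why the shares differ was not tested.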
